A study of Mus musculus with 4 samples.

Results

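Alveolar macrophages of tumour-bearing MMTV-HER2 mice were compared with those of wildtype mice of the same age, 32 weeks, in single-cell RNA sequencing of sorted lung macrophages. A barcode counted as an alveolar macrophage (AM) cell when it held at least 1000 UMIs and 500 genes, at most 10% mitochondrial UMIs, and when the sum of Chil3, Ear1, Ear2, Fabp1, Lpl and Plet1 made up at least 0.4% of its UMIs and exceeded the sum of C1qa, C1qb and C1qc. This gave 9947 AM cells in the late libraries, of 11683 passing cells there and 22258 in the whole series. Wildtype late held 4245 AM cells among 5129 (82.8%, exact 95% interval 81.7 to 83.8), and HER2 late held 5702 among 6554 (87.0%, interval 86.2 to 87.8). The cells were sorted, so the gate can set these shares.

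The series has 4 libraries of female mice, wildtype early and HER2 early (16 weeks) and wildtype late and HER2 late (32 weeks). HER2 stands for the MMTV-HER2 transgene, an oncogene driven by a mouse mammary tumour virus promoter that is active mainly in mammary epithelium. Where 4 levels follow each other, wildtype comes before HER2 and 16 before 32 weeks. The late stage is labelled as one with palpable tumours. Lungs were digested enzymatically at 37 degrees before the sort. Each group is 1 library, and the sources used here give neither the number of mice behind a library nor the antibodies of the gate. There is therefore no replicate check and no test anywhere below, and every interval covers counting error only.

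Alveolar macrophages live on the air side of the lung, where they clear surfactant lipid, inhaled particles and dead cells. They depend on GM-CSF and TGF-beta signals, and in mice they carry a characteristic set of transcripts that includes chitinase-like Chil3, the eosinophil-associated ribonucleases (Ear genes) and lipid-handling genes. Interstitial macrophages of the lung tissue are told from them by C1q and Cx3cr1. The comparison asks how the airspace macrophages of a lung differ once a mammary tumour is growing elsewhere in the body.

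Of the AM markers that the cell rule did not use, Krt79 stood at 582 CPM (UMIs of a gene per 1000000 AM UMIs) in wildtype late against 633 in HER2 late, Itgax at 326 and 266, Marco at 180 and 153, Car4 at 177 and 129, Siglecf at 118 and 104, and Cidec at 90 and 123. In cells with neither the AM nor the C1q genes these markers stood at 3.14 to 80.8 CPM, apart from Car4 at 274 and 380. AM cells gave 21563827 UMIs in wildtype late against 27573921 in HER2 late, with medians of 4752 and 4370 UMIs per cell. The late AM cells had 8 barcodes in common. Ribosomal protein genes took 8.48% of AM UMIs in wildtype late against 10.4 to 10.6% in the other 3 libraries, and Gm42418, a locus that collects ribosomal RNA reads, took 16.5% in wildtype late against 19.6% in HER2 late. Markers of T, B, NK, dendritic and mast cells summed to at most 18.5 CPM per list in either late library. Those of epithelial cells summed to 199 and 195 CPM, of fibroblasts to 128 and 85.7, of neutrophils to 103 and 85.0, of endothelial cells to 60.1 and 62.3, and of red cells and platelets to 29.8 and 48.9. Erbb2, the mouse gene for the same receptor, was at 10.2 CPM in wildtype late against 8.60 in HER2 late, which does not tell the transgene from the mouse gene.

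Wildtype late was the library that stood apart from the rest, and this bears on every fold below. Over genes of at least 50 CPM, the SD of log2 folds was 0.278 between HER2 late and wildtype late, 0.344 between the wildtype libraries and 0.329 between HER2 early and wildtype late. Among the pairs without wildtype late it was 0.0960 to 0.164. Wildtype late lay at least 25% above each of the other 3 libraries for 484 of 2929 genes (16.5%) and below each by the same ratio for 194 (6.62%), while HER2 late did so for 5 genes (0.171%) and 4 genes (0.137%). A fold of HER2 late over wildtype late is thus given with the levels of the early libraries beside it.

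Among 2874 genes of at least 50 CPM in either late library, 39 were at least 1.5-fold higher in HER2 late (1.36%) and 53 at least 1.5-fold lower (1.84%). The median gene of all 7439 genes of at least 10 CPM lay at log2 -0.20, and relative to the median gene at that level the counts were 125 higher (4.35%) and 14 lower (0.487%). The direction of the imbalance therefore turned with the scaling. In place of wildtype late, wildtype early as the reference left 12 genes higher and 12 lower, with age and genotype then differing together. The plot of fold against level shows where the 15 highest and 15 lowest genes stood.

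**Figure D1:**
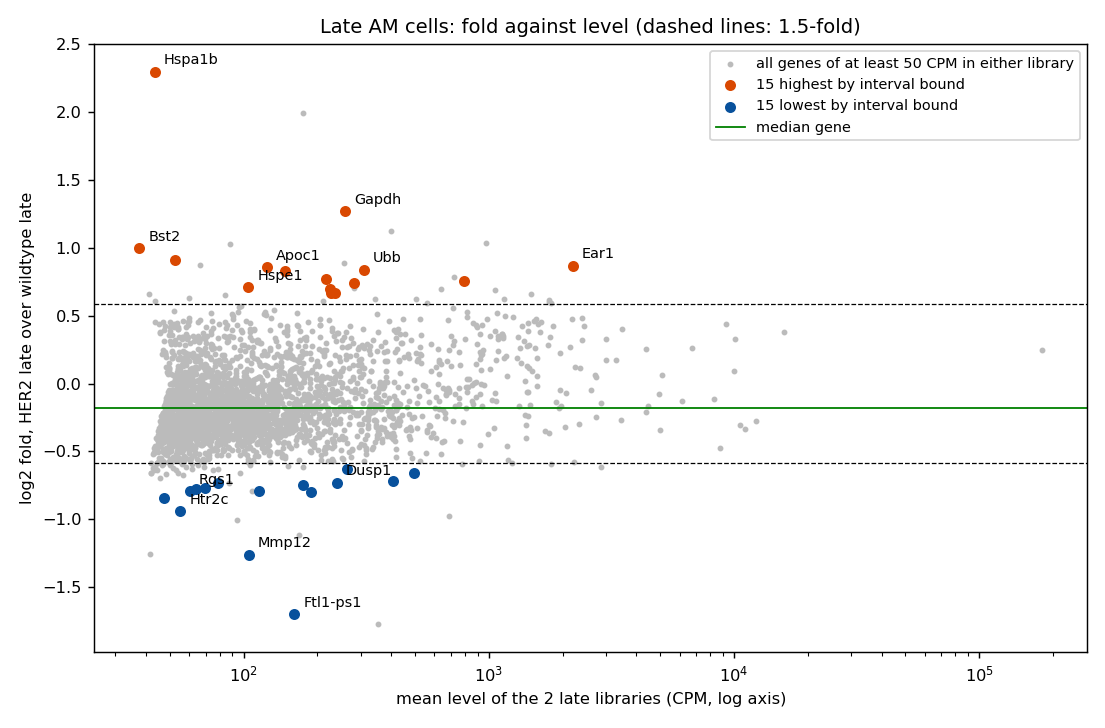
Log2 fold of HER2 late over wildtype late in AM cells (y axis) against the mean level of the 2 late libraries in CPM (x axis, log scale), for genes of at least 50 CPM in either library. Orange and blue points are the 15 highest and 15 lowest genes by the interval bound nearest to 0; grey points beyond them belong to gene classes left out of the naming. The green line is the median gene, which lies below 0, and Hspa1b stands alone at the top with log2 2.30.

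Heat shock chaperones led the higher genes. These proteins fold new and damaged proteins, and the inducible members are switched on by heat shock factor, which binds repeats of the unit GAA and its reverse complement TTC in their promoters. Hspa1b, an inducible HSP70 gene (GRCm38, chr17:34956436-34959238), stood at 134 and 136 CPM at 16 weeks and 14.7 and 72.0 CPM at 32 weeks, wildtype before HER2. The late libraries differed 4.91-fold (log2 2.30, interval 2.12 to 2.47). Wildtype late alone was far below the rest, and HER2 late was itself below both early libraries. Its neighbour Hspa1a (GRCm38, chr17:34969190-34972156) followed the same order at 62.3, 68.8, 8.16 and 41.1 CPM (5.03-fold between the late libraries, log2 2.33, interval 2.10 to 2.57). No other gene's last 300 transcribed bases matched either of them at 95% identity over 90 bases.

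The bases before the start of these genes are shown because Hspa1a and Hspa1b differed alike, and because Hspe1 and Hspd1 share 1 promoter region and did not. Sequences are the 250 bases before the start from RefSeq (GRCm38.p6), 5′ to 3′ on the gene's strand, with capitals marking 2 adjoining units (GAANNTTC or TTCNNGAA) in the HSP70 genes, and runs of 3 units (GAANNTTCNNGAA or TTCNNGAANNTTC, overlapping) in Hspe1. Hspa1b is at chr17:34959239-34959488 and Hspa1a at chr17:34972157-34972406, both on the minus strand, and Hspe1 is at chr1:55087898-55088147 on the plus strand.
Hspa1b: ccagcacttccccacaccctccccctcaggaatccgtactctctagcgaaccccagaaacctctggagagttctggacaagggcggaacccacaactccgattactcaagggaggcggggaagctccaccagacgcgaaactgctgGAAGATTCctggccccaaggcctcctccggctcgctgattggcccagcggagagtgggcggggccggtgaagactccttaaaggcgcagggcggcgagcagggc
Hspa1a: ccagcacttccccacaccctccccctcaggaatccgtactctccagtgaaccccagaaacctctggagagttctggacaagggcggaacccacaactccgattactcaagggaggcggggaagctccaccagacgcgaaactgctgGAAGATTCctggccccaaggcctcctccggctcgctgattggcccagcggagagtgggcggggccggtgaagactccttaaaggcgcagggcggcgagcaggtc
Hspe1: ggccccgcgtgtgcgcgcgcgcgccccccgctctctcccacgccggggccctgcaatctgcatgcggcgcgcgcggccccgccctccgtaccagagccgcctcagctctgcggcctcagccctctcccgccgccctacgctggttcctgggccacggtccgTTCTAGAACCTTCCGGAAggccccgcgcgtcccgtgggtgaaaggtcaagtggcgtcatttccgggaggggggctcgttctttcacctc
The Hspa1a and Hspa1b windows differed at 3 of 250 bases, and both hold the marked match from 104 to 97 bases before the start. The window of Hspe1 shares 215 bases with that of Hspd1, which is read from the opposite strand, and the marked run lies 89 to 72 bases before the Hspe1 start. Searched on both strands, the 3-unit form was in 153 of 32851 RefSeq windows of this length (0.466%) and the 2-unit form, which every 3-unit match also holds, in 12.8%. Of the 20 heat shock genes measured, 15 had a RefSeq window (21 windows). The 3-unit form was in windows of 3 genes (Dnajb6, Hspd1 and Hspe1) and the 2-unit form in those of 8. A match is a description of letters, not a binding site.

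Hspe1, the small co-chaperonin of the mitochondrial folding chamber, stood at 154, 139, 79.3 and 130 CPM in the 4 libraries (1.64-fold between the late libraries, log2 0.71, interval 0.63 to 0.79). Hspd1, the chamber itself, stood at 185, 177, 169 and 169 CPM (log2 -0.01, interval -0.07 to 0.06). The partners of 1 shared promoter region thus differed by 1.64-fold in one case and by less than counting error in the other. The J-domain co-chaperone Dnaja1 stood at 390, 366, 182 and 290 CPM in the same order (1.59-fold, log2 0.67, interval 0.62 to 0.73), and Dnajb1 at 35.4, 38, 18.4 and 31.5 CPM (1.71-fold, log2 0.78, interval 0.60 to 0.95). Hspa8, the constitutive HSP70 of the cytosol and the most abundant member, was at 2560, 2319, 1557 and 2095 CPM (1.35-fold). At the other end, mitochondrial Hspa9 was lower, at 196 CPM in wildtype late against 150 in HER2 late.

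Over the list of 20 measured members, 14 were at least 25% above the median gene and none below it by the same ratio (the step used for every list), where 12.3% of all 7439 genes of at least 10 CPM were above and 4.85% below. At 1.5-fold, 8 were above and 0 below (3.20 and 0.390% of all genes). Without centring on the median gene, 9 were at least 25% higher in CPM and 1 lower by the same ratio (4.68 and 27.4%). The median member lay 0.50 above the median gene on the log2 scale. In 16 of the 20, wildtype late was the lowest of the 4 libraries, an order found in 17.3% of all genes, and in none was HER2 late the highest. Summed over the list, the level was 6588 and 6193 CPM at 16 weeks and 4612 and 5617 CPM at 32 weeks, wildtype before HER2. Against wildtype early as the reference the list median was -0.24, with 6 members below the median gene by that step and 0 above (2.61 and 2.82% of all genes).

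**Figure D2:**
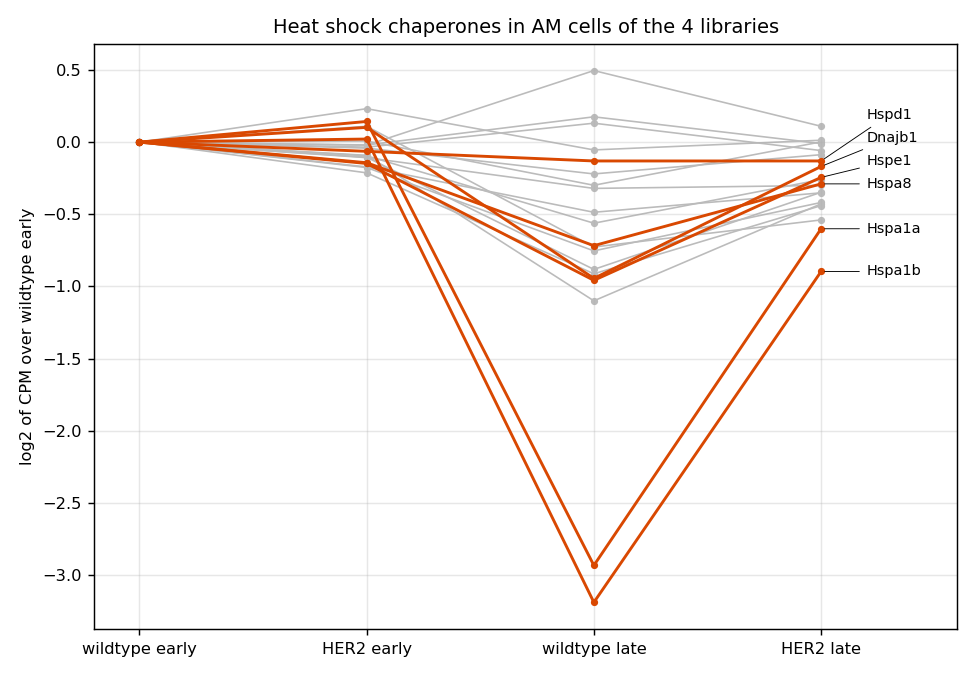
Level of each of the 20 heat shock chaperones in AM cells of the 4 libraries, as log2 of CPM over wildtype early (y axis), 1 line per gene. Orange lines are named genes; Hspa1a and Hspa1b are lowest in wildtype late and sit between wildtype late and the early libraries in HER2 late, while Hspd1 is level.

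The Hspa1b difference was also seen in the share of cells. After thinning every AM cell to 2000 UMIs, which left out 171 cells of wildtype late and 340 of HER2 late, 2.28% of wildtype late cells (exact interval 1.85 to 2.79) and 10.4% of HER2 late cells (9.64 to 11.3) held at least 1 Hspa1b UMI. Without thinning the shares were 5.32 and 19.5%. Cells with neither the AM nor the C1q genes, which also express heat shock genes, gave 6.47 and 12.0% after thinning (median depths before thinning 4496 and 5398 UMIs, against 4873 and 4538 in AM cells), with overlapping intervals (3.49 to 10.8 and 7.75 to 17.4). Without thinning those shares were 10.8 and 33.2%. The 1% of AM cells with the most Hspa1b held 40.8% of its UMIs in wildtype late against 21.8% in HER2 late. In the C1q cells, the interstitial-like class of the same libraries, Hspa1b was higher by log2 1.12 (interval 0.90 to 1.35) and Hspa1a by 1.47 (1.22 to 1.73), and 13 of 22 chaperones lay at least 25% above the median gene (19.5% of all genes there). In the cells with neither gene set Hspa1b stood at 40.1 CPM in wildtype late against 112 in HER2 late. After thinning, 3.98% (1.73 to 7.69) and 14.1% (9.48 to 19.8) of those cells held an Hspa1a UMI. The list median there was log2 0.09, without centring. The heat shock difference was thus seen in both macrophage classes, and that of Hspa1a and Hspa1b also in the summed remaining cells. Those cells are of mixed type. Median log2 folds of measured markers there were 5.66 for neutrophils, -2.79 for epithelial cells and 0.01 for endothelial cells. Whether a different mix of cells carried the Hspa1a and Hspa1b difference there was not tested. With 1 library per group genotype and library cannot be told apart.

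Wildtype late was also the lowest library for the other genes among the 15 highest. Gapdh, the glycolytic enzyme often used as a reference gene (GRCm38, chr6:125161715-125166467), stood at 357 and 335 CPM at 16 weeks and 152 and 367 CPM at 32 weeks, wildtype before HER2 (2.42-fold between the late libraries, log2 1.27, interval 1.22 to 1.33). HER2 late lay with the early libraries, and wildtype late alone was low. After thinning, 25.1% of wildtype late AM cells (23.8 to 26.4) and 46.7% of HER2 late cells (45.3 to 48.0) held a Gapdh UMI (48.5 and 68.2% without thinning), against 14.4 and 33.3% of the cells without AM and C1q genes. Gapdh has near-identical copies at its 3′ end, at 4 other genes. The glycolytic list did not follow it, with 2 of 16 members above (Gapdh and Eno1), 1 below (Aldoc) and a median of 0.06.

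Ubb, a polyubiquitin gene that is also heat-inducible, was at 572, 682, 222 and 397 CPM in the 4 libraries (1.79-fold, log2 0.84, interval 0.79 to 0.89). Bst2, the interferon-induced tether of budding virus particles, was at 51.8, 51.2, 25 and 50.0 CPM (2.00-fold, log2 1.00, interval 0.85 to 1.14). The interferon response list held 5 of 21 members above the median gene by that step and none below, with a median of 0.12, so Bst2 led a list whose centre barely moved. Tmsb10, an actin-binding thymosin, was at 1258, 1301, 587 and 992 CPM (1.69-fold), and Bcl2a1b, an anti-apoptotic Bcl2 relative with 2 near-identical copies, at 230, 224, 106 and 188 CPM (1.78-fold). Gadd45g, a stress-responsive growth arrest gene, stood at 44.5, 60.7, 36.6 and 68.6 CPM (1.87-fold, log2 0.91, interval 0.78 to 1.03), and here HER2 late was the highest of the 4. The histone variant H2afj and the translocon subunit Sec61b completed the group at 1.63 and 1.59-fold.

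In all 15 genes wildtype late was the lowest library, as in 17.3% of all genes of at least 10 CPM. These genes were ranked by their fold over wildtype late, so the selection itself favours that order. HER2 late was the highest in 7 of them, and it lay between wildtype late and both early libraries in the other 8. Against wildtype early, 7 of the 15 kept the direction and 8 lay within 25%, or the same ratio downwards, of that library. Wildtype late was the highest library in 14 of the 15 lowest genes, and HER2 late was the lowest in 4. Over all genes of at least 10 CPM these shares were 67.2 and 33.7%, and the ranking again favours such an order. Of these 15, 8 kept the direction against wildtype early and 10 lay within the same step of it. For HER2 late and wildtype early, 7232 genes reached 10 CPM in either library. Of those, 2.82% lay at least 25% above the median gene and 2.61% below by the same ratio. Lying within that step was thus the rule among all genes.

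**Figure D3:**
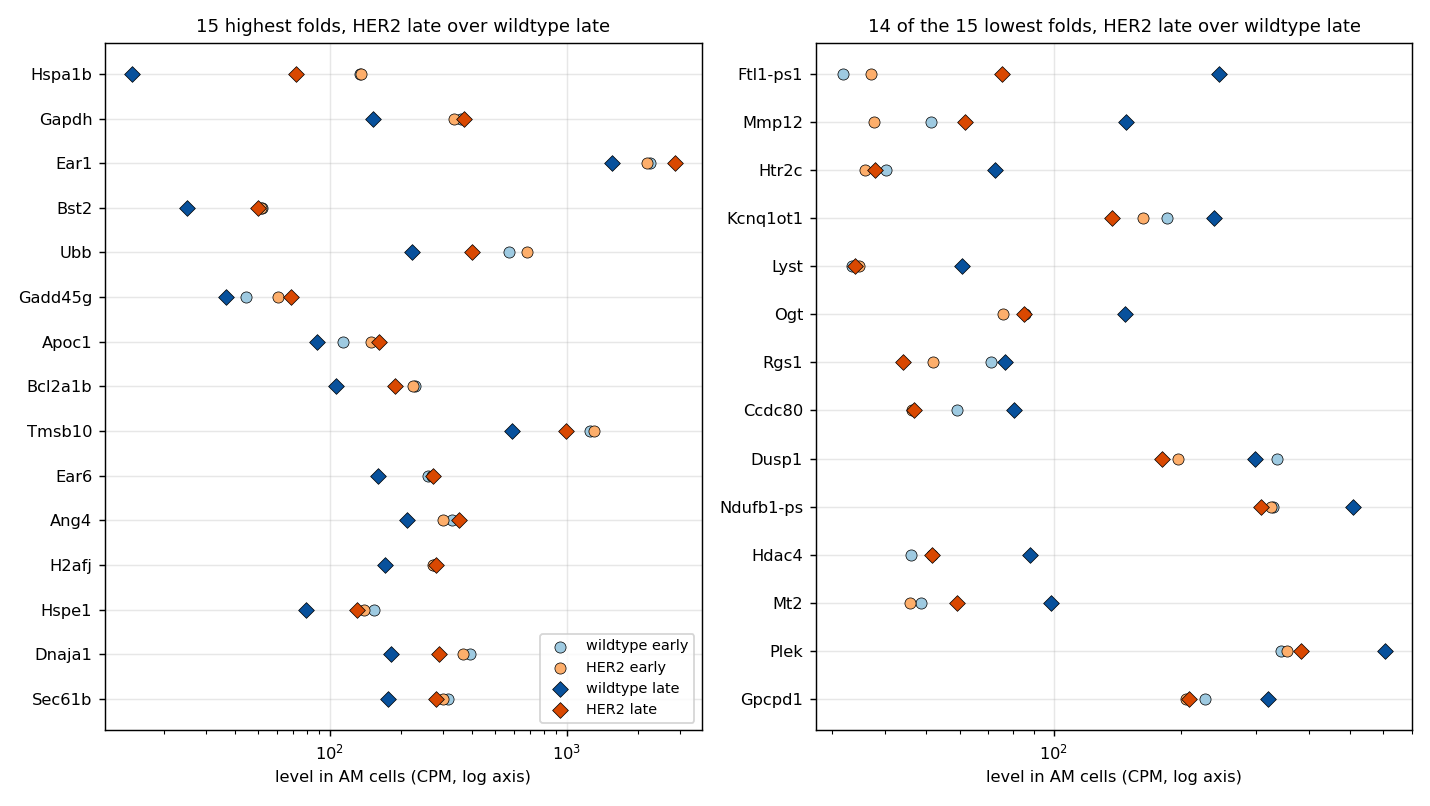
Levels in AM cells (CPM, log axis) of the 15 genes with the highest folds (left) and 14 of the 15 with the lowest (right), 1 point per library. Dark diamonds are wildtype late and orange diamonds HER2 late, and pale circles are the early libraries; wildtype late stands at the end of the row in 15 genes on the left and 13 on the right.

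**Figure D4:**
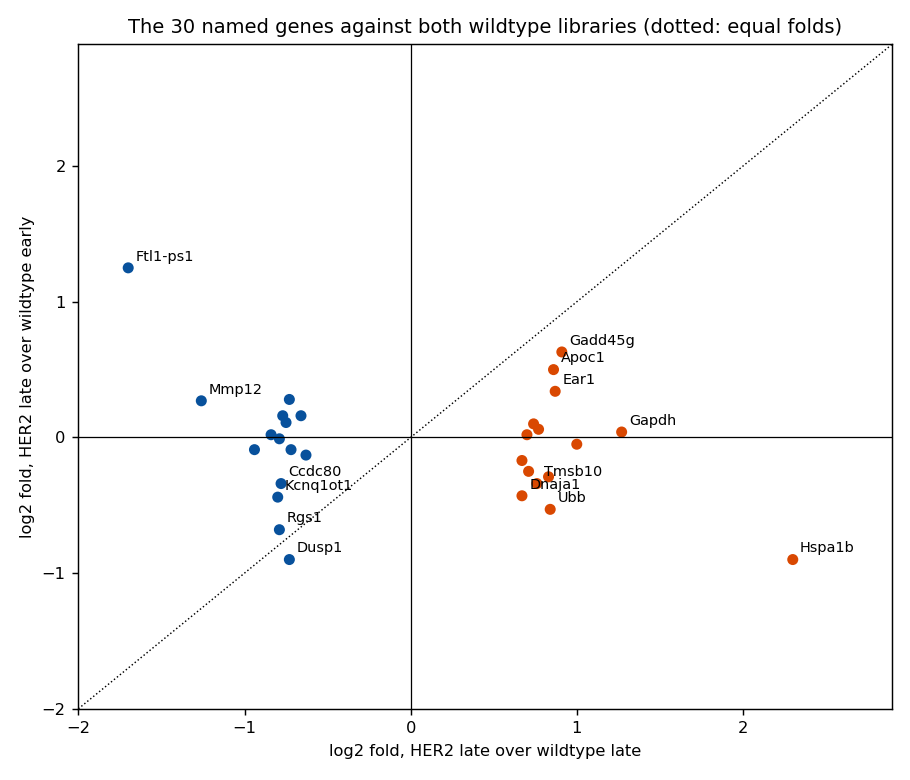
Log2 fold of HER2 late over wildtype late (x axis) against HER2 late over wildtype early (y axis) for the 30 named genes. The folds share the HER2 late library; points near the horizontal line differ from wildtype late but little from wildtype early, and Dusp1, Rgs1 and Gadd45g lie nearest the dotted line of equal folds.

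Ear and angiogenin ribonucleases, secreted enzymes of the RNase A family that are abundant in mouse alveolar macrophages, were higher as a group but not uniformly. Ear1 (GRCm38, chr14:43818765-43875517) stood at 2249 and 2175 CPM at 16 weeks and 1554 and 2845 CPM at 32 weeks, wildtype before HER2 (1.83-fold, log2 0.87, interval 0.85 to 0.89). HER2 late was the highest library and wildtype late the lowest. Ear6 was at 260, 271, 160 and 272 CPM (1.70-fold), Ang4 at 328, 301, 211 and 351 CPM (1.67-fold), and Ear2 at 3423, 4444, 2129 and 2664 CPM (log2 0.32). Ang2 went the other way, at 156, 156, 247 and 167 CPM (1.48-fold lower in HER2 late), and Ear10 at 280, 256, 511 and 438 CPM. Of 10 measured members 6 were at least 25% above the median gene and 1 below, with a median of 0.47. Ear1 has 3 near-identical copies, so reads can be split between it and them, and Ear1 and Ear2 were among the genes that chose the cells. With the cells chosen without them Ear1 was higher by log2 0.88 and the list median was 0.46. Free RNA also held these genes, in either direction, with Ear1 at 875 CPM of the free RNA in wildtype late against 2206 in HER2 late, Ear6 at 322 against 258, and Ang4 at 810 against 369.

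Small secreted and calcium-binding proteins shifted with them. Lyz2, which encodes lysozyme, was at 11136, 11795, 7916 and 10726 CPM in the 4 libraries (1.36-fold, log2 0.44, interval 0.43 to 0.45). S100a10, an annexin partner, was at 1186, 1101, 665 and 959 CPM (1.44-fold), and the protease inhibitor Slpi at 624, 602, 374 and 522 CPM (1.39-fold). Wildtype late was again the low library for these genes. Of 14 measured members of the S100 and WAP-domain list 10 were above the median gene by that step and none below, with a median of 0.58. Against wildtype early that median was -0.11. The ferritin subunits Fth1 (8983 CPM in wildtype late, 11289 in HER2 late) and Ftl1 (6147 and 7362) were also higher, while the list of iron genes as a whole had a median of -0.08.

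Transcripts of the translation and respiration machinery were above the median gene together. Of 79 ribosomal protein genes 66 were at least 25% above the median gene and 4 below, with a median of 0.55. Without centring, 43 were higher and 5 lower (4.68 and 27.4% of all genes). In 69 of the 79 wildtype late was the lowest library, and the summed level was 84763 CPM there against 103543 in HER2 late, 106446 in wildtype early and 106217 in HER2 early. The outlying members, Rpl29 at 1.79 and Rps27 at -1.57 relative to the median gene, have 34 and 8 near-identical copies. Of 76 subunits of oxidative phosphorylation, the chain that makes ATP in mitochondria, 46 were above and 0 below, with a median of 0.37 and sums of 15540 CPM in wildtype late against 17395 in HER2 late. Without centring 17 of the 76 were higher and 2 lower, beside the same 4.68 and 27.4% of all genes. Against wildtype early the medians were -0.01 for ribosomal proteins and -0.04 for oxidative phosphorylation.

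Short transcripts were higher relative to long ones across the whole table. In 4 classes of transcript length the median gene lay at 0.19, 0.02, -0.04 and -0.10 from the overall median, from the shortest class (204 to 2196 bases) to the longest (4958 to 123179 bases). The share of genes at least 25% above the median gene was 32.5% in the shortest class and 2.04% in the longest. Taken against genes of their own length class, the list medians were 0.37 for ribosomal proteins, 0.20 for oxidative phosphorylation, 0.40 for S100 and WAP-domain proteins, 0.36 for the ribonucleases and 0.47 for heat shock chaperones. Of these 5 lists, that of the heat shock chaperones, with a median length of 2981 bases, moved least under this step. The ribosomal and respiratory lists had median lengths of 1106 and 1093 bases. Genes with a near-identical copy at the 3′ end were at least 1.5-fold higher in 5.24% of 191 cases against 1.08% of 2682 genes without one. What part of the group differences length and copies account for was not tested.

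**Figure D5:**
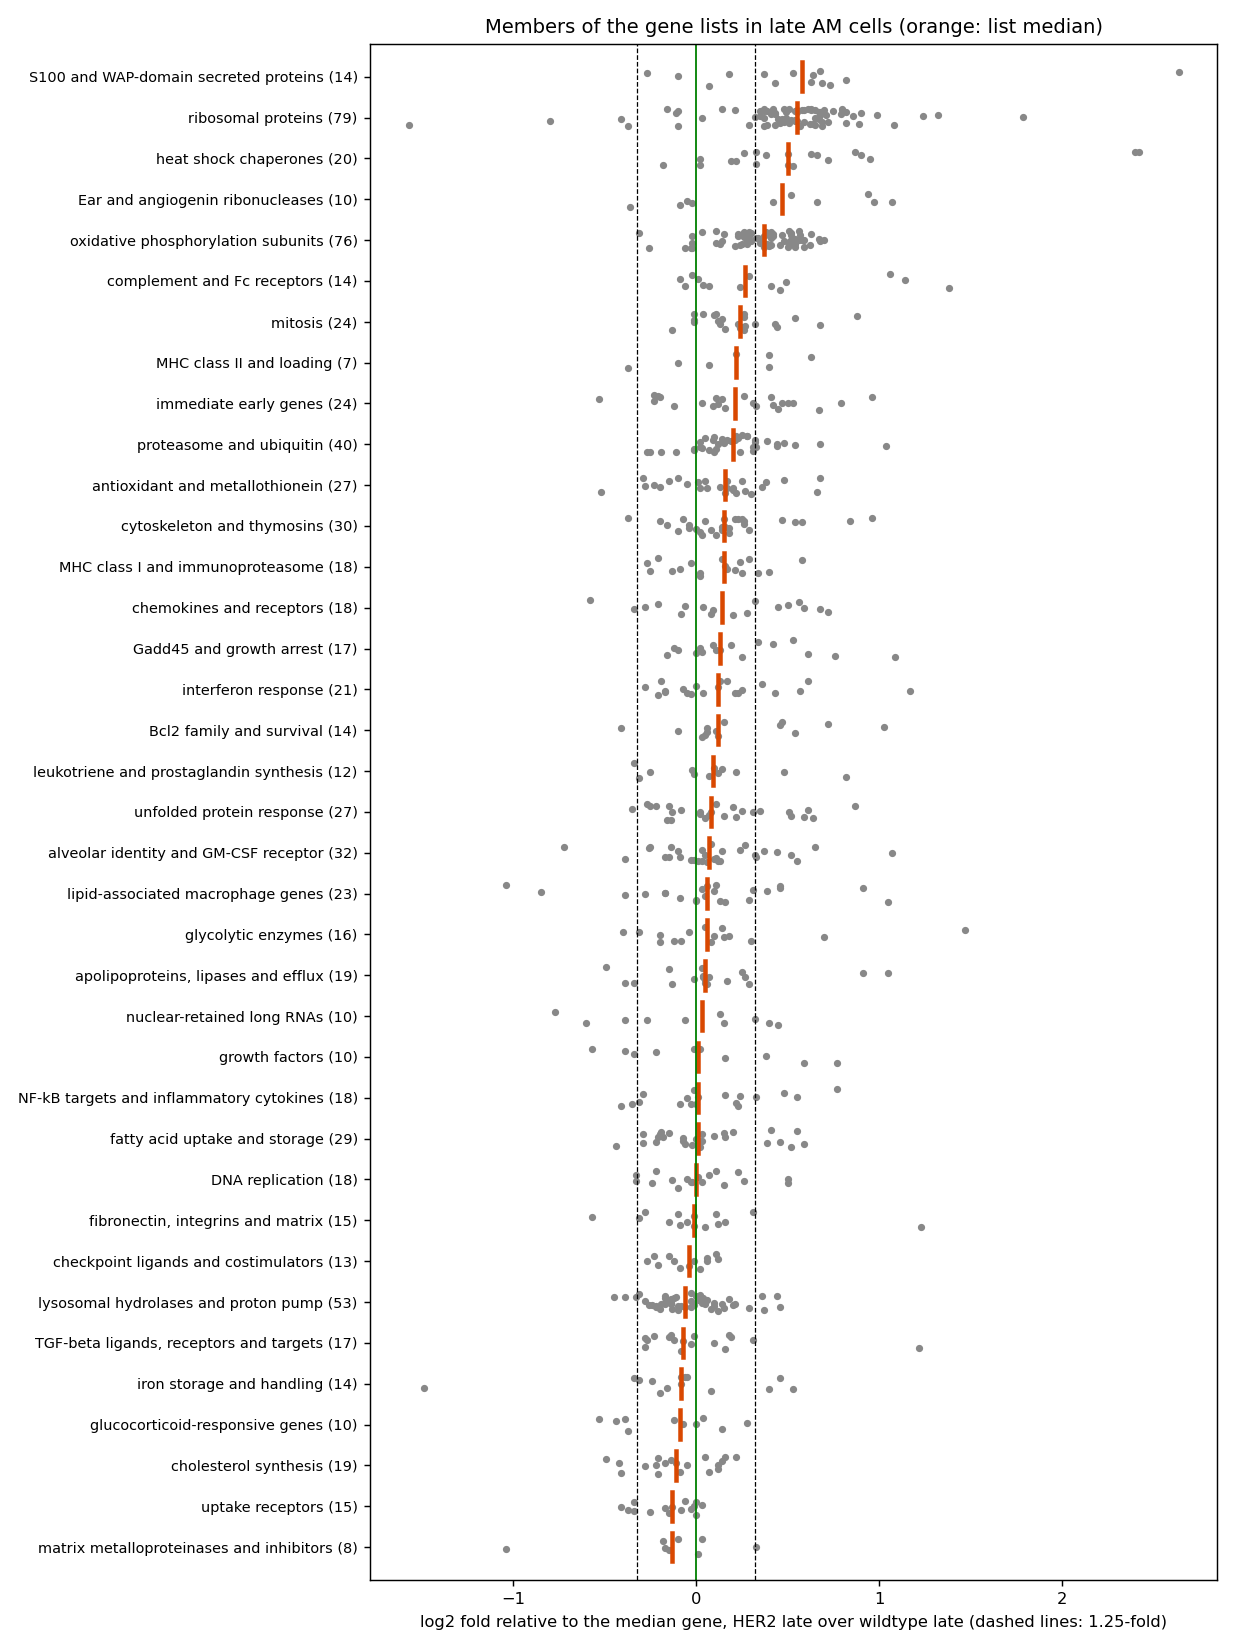
Log2 fold of HER2 late over wildtype late relative to the median gene (x axis) for members of each gene list with at least 10 CPM (grey points, number of members in parentheses) and the list median (orange bar). Dashed lines mark 25% above and the same ratio below; 5 lists have a median of at least 0.3, and no list has a median of -0.3 or less.

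Among the lower genes, Mmp12, the macrophage elastase that degrades lung elastin, stood at 51.4 and 37.6 CPM at 16 weeks and 148 and 61.8 CPM at 32 weeks, wildtype before HER2 (GRCm38, chr9:7344381-7369499; 2.39-fold lower in HER2 late, log2 -1.26, interval -1.34 to -1.17). Wildtype late was the high library. HER2 late lay below it and above both early libraries, at 1.20-fold over wildtype early. The 1% of AM cells with the most Mmp12 held 36.5% of its UMIs in wildtype late against 46.1% in HER2 late. Cells without the AM and C1q genes also held Mmp12, at 327 CPM in wildtype late against 66.3 in HER2 late. Mmp12 was the only one of 8 measured matrix metalloproteinase genes and inhibitors below the median gene by that step.

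Ftl1-ps1, an annotated ferritin light chain copy (GRCm38, chr13:74399694-74407346), had the lowest fold among the gene classes named here, at 31.8 and 37.1 CPM at 16 weeks and 246 and 75.6 CPM at 32 weeks, wildtype before HER2 (log2 -1.70, interval -1.78 to -1.63). It has 15 near-identical copies, and the free RNA of barcodes with 10 to 100 UMIs held it at 7399 CPM in wildtype late against 689 in HER2 late. With free RNA subtracted, at 3.02% of AM UMIs in wildtype late against 1.48% in HER2 late, its log2 fold was 1.5 in the other direction, so its direction rests on that step.

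Htr2c, a serotonin receptor gene, stood at 40.3, 35.8, 72.7 and 37.9 CPM in the 4 libraries (1.92-fold lower, log2 -0.94, interval -1.05 to -0.82). Wildtype late was the highest library, as it was in 67.2% of all genes of at least 10 CPM. Ogt, the enzyme that attaches O-linked GlcNAc to proteins, was at 85.7, 76.0, 147 and 85.1 CPM, and Lyst, a lysosomal trafficking regulator, at 33.5, 34.8, 60.9 and 34.0 CPM. Kcnq1ot1, a nuclear antisense RNA of an imprinted locus, was at 185, 162, 239 and 137 CPM. The sources used here do not state whether counting was strand-aware. Whether reads of the gene that Kcnq1ot1 overlaps enter its count was not tested. The list of nuclear-retained long RNAs had 3 of 10 members above the median gene by that step and 3 below, with a median of 0.03. The 15 lowest genes had a median transcript length of 4474 bases and the 15 highest one of 893 bases.

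Glucocorticoid-responsive genes were a group in which HER2 late itself was mostly the low library. Glucocorticoids are stress and circadian steroid hormones that act on macrophages through a nuclear receptor. Dusp1, a phosphatase that shuts off MAP kinases (GRCm38, chr17:26505590-26562128), stood at 336 and 196 CPM at 16 weeks and 299 and 180 CPM at 32 weeks, wildtype before HER2 (1.66-fold lower, log2 -0.73, interval -0.79 to -0.68). Both HER2 libraries were below both wildtype libraries. The clock gene Per1 showed the same order at 43.9, 29.7, 37.3 and 24.3 CPM (1.53-fold lower, log2 -0.62, interval -0.77 to -0.47), as did the transcription factor gene Klf9 at 48.4, 37.4, 53.1 and 35.4 CPM (1.5-fold lower) and the receptor co-chaperone gene Fkbp5 at 52.1, 46.5, 65.9 and 41.8 CPM (1.58-fold lower). These were the 4 of 10 measured members below the median gene by that step, with none above (12.3 and 4.85% of all genes above and below). HER2 late was the lowest library in 8 of the 10, against 33.7% of all genes. This order was not particular to the list, since it was also found in 11 of 18 DNA replication genes and 7 of 13 checkpoint genes.

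The list median over wildtype late was only -0.09, and over wildtype early it was -0.40. Tsc22d3, a classical target of the receptor, was at 431, 303, 271 and 243 CPM, close to the median gene between the late libraries. Dusp1 is also induced as an immediate early gene. Of the 24 measured members of the immediate early list 10 were above the median gene by that step and 1 below (12.3 and 4.85% of all genes). Without centring 4 were higher and 6 lower (4.68 and 27.4% of all genes). In C1q cells 4 of 14 list members were below the median gene by that step and 1 above (17.2 and 19.5% of all genes there), with a median of -0.13. There Per1 was lower by log2 -0.67 (interval -1.0 to -0.35), Klf9 by -0.72 (-0.97 to -0.47), Fkbp5 by -0.58 (-0.78 to -0.38) and Dusp1 by -0.34 (-0.47 to -0.22), which is within the step of the median gene. After thinning, 33.2% of wildtype late AM cells (31.8 to 34.7) and 22.7% of HER2 late cells (21.5 to 23.8) held a Dusp1 UMI (51.8 and 36.9% without thinning), against 43.8 and 28.6% of the cells without AM and C1q genes.

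Rgs1, which curbs signalling of chemokine receptors, stood at 71.0, 52.0, 76.7 and 44.2 CPM in the 4 libraries (1.74-fold lower, log2 -0.79, interval -0.90 to -0.69), with both HER2 libraries again below both wildtype libraries. In C1q cells it was higher by log2 0.79 (interval 0.61 to 0.96), and the difference between the cell classes was not tested. The chemokine list as a whole had 6 of 18 members above the median gene and 2 below, Rgs1 and the ligand Cxcl9. Metallothionein Mt2, which binds zinc, was at 48.6, 45.9, 98.4 and 59.2 CPM.

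Lists of lipid handling and uptake had medians from -0.13 to 0.01. Of 29 fatty acid uptake and storage genes 6 were above the median gene by that step and 1 below, with a median of 0.01 (12.3 and 4.85% of all genes above and below). Within their own length class 4 were above and 2 below. Of 15 uptake receptors 4 were below the median gene by that step and 0 above, with a median of -0.13, and wildtype late was the highest library in 14, against 67.2% of all genes. Taken against genes of their own length class, only 1 receptor was below by that step and 0 above, with a median of -0.15. Lrp1, a large scavenger and clearance receptor, stood at 341, 349, 495 and 340 CPM in the 4 libraries, and Msr1, scavenger receptor A, at 49.5, 47.2, 62.6 and 42.8 CPM. Of 19 cholesterol synthesis genes 3 were below and 0 above, with a median of -0.11. Srebf2, the sterol-sensing transcription factor gene, was at 22.0, 17.9, 29.5 and 18.9 CPM. Lpl, lipoprotein lipase, was at 1223, 1486, 2161 and 1433 CPM (1.51-fold lower), although it was among the genes that chose the cells. For Lrp1, Srebf2 and Lpl HER2 late lay near the early libraries. The lysosomal list, 53 genes that digest what the cell takes up, was centred at -0.06 with 4 members above and 3 below.

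Apoe and Apoc1, apolipoproteins of lipid transport, were higher. Apoc1 (GRCm38, chr7:19689481-19692660) stood at 114, 150, 88.5 and 161 CPM in the 4 libraries (1.81-fold, log2 0.86, interval 0.78 to 0.94), and Apoe at 227, 308, 214 and 349 CPM (1.63-fold, log2 0.71, interval 0.66 to 0.76). Both HER2 libraries were above both wildtype libraries for both genes. C1qa, C1qb and C1qc were higher as well, at 46.8 and 85.6, 22.2 and 43.6, and 13 and 30.6 CPM in wildtype late and HER2 late. These belong to the marker list of interstitial macrophages, of which 7 of 10 genes reached 10 CPM. All 7 were above the median gene by that step and highest in HER2 late, and the list summed to 301, 401, 330 and 569 CPM in the 4 libraries, with no member at 0.

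A small set of cells carried most of these UMIs. AM cells with at least 10 C1q UMIs numbered 44 in wildtype late against 73 in HER2 late, with medians of 7557 and 10052 UMIs, and they held 79.0 and 82.2% of all C1q UMIs of AM cells. Without them Apoc1 was higher by log2 0.87 (interval 0.80 to 0.95), as before, and Apoe by 0.44 (0.38 to 0.50). C1qa was then at 11.9 and 16.5 CPM (log2 0.47, interval 0.24 to 0.69), C1qb at 3.82 and 8.43 CPM (1.14, 0.77 to 1.53) and C1qc at 1.74 and 4.29 CPM (1.30, 0.75 to 1.87), so the C1q genes were higher in the remaining cells too. Retnla, a secreted protein of type 2 responses, went from 1.44 and 12.2 CPM, with 84.6% of its UMIs in HER2 late in 3 cells, to 1.18 and 1.12 CPM. No doublet caller was run. Leaving out AM cells that could be doublets (the top 5% of UMIs in a library, or at least 2 UMIs of markers of other classes) kept 2702 cells of wildtype late and 3719 of HER2 late. In them Apoc1 was higher by log2 0.76 and Apoe by 0.30. Over all alternatives run, the log2 fold of Apoe ranged from 0.16, without cells of 3 or more cell cycle UMIs, to 0.90, with free RNA subtracted.

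MHC class II genes, which present antigen to CD4 T cells, did not differ in 1 direction. H2-Aa stood at 162, 151, 174 and 235 CPM in the 4 libraries (1.35-fold, log2 0.43, interval 0.37 to 0.49), H2-Ab1 at 120, 116, 205 and 207 CPM, Cd74 at 511, 446, 896 and 819 CPM, and the loading chain gene H2-DMb1 at 97.8, 90.4, 154 and 103 CPM. Without the cells rich in C1q, H2-Aa was at log2 0.09 (0.02 to 0.16) and Cd74 at -0.45 (-0.48 to -0.41). After thinning, 18.4% of wildtype late and 18.1% of HER2 late AM cells held an H2-Aa UMI (28.7 and 27.2% without thinning), below the 44.3 and 53.6% of cells without AM and C1q genes. The 1% of cells with the most H2-Aa carried 41.2% of its UMIs in HER2 late against 24.8% in wildtype late.

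HER2 late was set apart from all 3 other libraries by that step in few genes. On the high side, besides Ear1 and H2-Aa, Wfdc10 (a WAP-domain protein gene) stood at 17.5, 31.0, 46.7 and 72.6 CPM in the 4 libraries (1.55-fold over wildtype late, log2 0.63, interval 0.52 to 0.75). It was higher at 32 than at 16 weeks in both genotypes and higher in HER2 than in wildtype at both ages. Fabp4, a fatty acid carrier, was at 84.4, 97.9, 110 and 145 CPM (1.31-fold, log2 0.39, interval 0.32 to 0.47). On the low side Malat1, a nuclear RNA, was at 9587, 9730, 10168 and 7312 CPM (1.39-fold lower, log2 -0.48, interval -0.48 to -0.47), S100a6 at 118, 53.4, 56.1 and 40.3 CPM, the histone methyltransferase gene Ash1l at 80.3, 81.0, 82.5 and 62.8 CPM, and the ubiquitin ligase gene Mycbp2 at 317, 318, 328 and 251 CPM.

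Complement and Fc receptor genes, which include the C1q genes, had 6 of 14 members above the median gene by that step and none below (median 0.27), and proteasome and ubiquitin genes 8 of 40 above and none below (median 0.20). Alveolar identity and GM-CSF receptor genes had 7 of 32 members above and 2 below (median 0.07), TGF-beta genes 1 of 17 above and 0 below (median -0.07), checkpoint ligands 0 of 13 in either direction (median -0.04), and NF-kB targets 4 of 18 above and 2 below (median 0.01). Nothing particular to these lists is read from these counts. Growth factor genes had 3 of 10 members above and 3 below (12.3 and 4.85% of all genes). Osm, an IL-6 family cytokine, was at 17.2 and 26 CPM in wildtype late and HER2 late, and Hgf, hepatocyte growth factor, at 11.5 and 6.31 CPM. Mitosis genes had 5 of 24 above and none below (median 0.24), led by Ube2c at 39.3, 23.1, 15.7 and 25.9 CPM in the 4 libraries, and DNA replication genes 2 of 18 above and 2 below. Against wildtype early 14 of 24 mitosis genes were below the median gene by that step.

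The authors' deposited table of average signal over AM cells is a second readout of the same libraries and no independent evidence. The direction there was the same for 95.9% of 2866 genes of at least 50 CPM, and for 30 of the 30 named genes. Hspa1b was at 0.119 in wildtype late against 0.642 in HER2 late in the authors' deposited table, a log2 ratio of 2.44, and Dusp1 at a log2 ratio of -0.75.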

How the data were processed

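Droplet 3′ single-cell RNA sequencing was made of sorted lung macrophages in 4 libraries, 1 per group. The count matrices the authors deposited hold UMIs per gene for barcodes of all sizes. The submitters' processing notes list mm10 and Cell Ranger 5.0.1, and version 4 stands in the header of the counts, per the file headers. The authors also deposited average signal over AM cells, each column summing to 10000 over 15906 genes, and the sources used here do not say how those cells were chosen.

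Groups came from the sample titles. Counts of AM cells were summed per library and scaled to CPM. Folds carry exact conditional binomial 95% intervals, shares Clopper-Pearson intervals. List values are log2 folds with 1 CPM added, less the median gene. Named genes are the 15 highest and 15 lowest folds at 50 CPM or more, in order of the interval end closest to 0. Gene models, ribosomal, mitochondrial, globin and immunoglobulin genes, Xist, Tsix, some Y-linked genes and other cells' markers were left out of that order. Also named are list members and, with the same genes left out, those for which HER2 late lay at least 25% outside the other 3 libraries. Members and lists were chosen with earlier results of these data known. AM cells held 21563827 UMIs (wildtype late) and 27573921 (HER2 late). C1q cells held C1q genes at 0.4% of UMIs or more and at least the AM sum. No doublet caller was run. Positions and lengths are from GENCODE M21 (7435 of 7439 genes matched), copies from BLAST 2.17.0. Python 3.11.15, NumPy 2.4.6, SciPy 1.17.1 and pandas 2.3.3 were used, and the steps were tested on simulated counts. Some genes of these groups are not reported here.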

Additional observations from a re-analysis of the deposited data

Results flagged for a closer look

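Among 89 genes named by the rule or in the text, those whose HER2 over wildtype direction was opposite in 2 settings of the same series, by at least 25% or the same ratio downwards on each side, are given here. None of these differences was tested. Between AM cells and C1q cells of the late libraries, where the interval in C1q cells also had to lie off 0, 3 genes differed in direction. Rgs1 was lower in AM cells (log2 -0.79) and higher in C1q cells (log2 0.79, interval 0.61 to 0.96). Retnla was higher in AM cells (log2 3.09), where 84.6% of its UMIs in HER2 late lay in 3 cells, and lower in C1q cells (log2 -1.55, interval -1.68 to -1.42). Car4 was lower in AM cells (log2 -0.46) and higher in C1q cells (log2 1.12, interval 0.18 to 2.17), where it stood at 5.81 and 12.6 CPM. Between early and late AM cells, Ube2c was lower in HER2 early (log2 -0.77) and higher in HER2 late (log2 0.72), Cx3cr1 likewise (log2 -0.49 and 0.53), and Cxcl9 the other way (log2 0.93 and -0.60). Without the late AM cells of at least 10 C1q UMIs, Cx3cr1 was at 3.68 CPM in wildtype late against 1.90 in HER2 late. That is log2 -0.95 (interval -1.49 to -0.42), so its late direction rests on those cells.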

How the results depend on the processing

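No paired analysis was possible because each group is 1 library, and for the same reason no replicate could be left out. The genes at least 1.5-fold lower numbered 22 with totals that leave out mitochondrial, ribosomal protein and nuclear-retained RNAs, 29 with totals without Gm42418, 143 with a mitochondrial limit of 5%, 89 without cells of 3 or more cell cycle UMIs, 136 at 20 CPM and 14 at 200 CPM, and 14 relative to the median gene, against 53. The genes at least 1.5-fold higher numbered 15 without the cells of 3 or more cycle UMIs, 60 at 20 CPM and 125 relative to the median gene, against 39. That cycle setting kept only 20.3% of wildtype late and 23.4% of HER2 late AM cells, and with it 3 lists reached a median of 0.3, against 5. The cause of these shifts was not tested. Leaving out the cells rich in C1q, the totals without Gm42418 and wildtype early as the reference were chosen after seeing the data. With wildtype early, 12 genes were higher and 12 lower, the SD of log2 folds was 0.164, 15 of the 30 named genes kept their direction, 0 lists reached 0.3, and the medians of heat shock chaperones, oxidative phosphorylation, ribosomal proteins and S100 and WAP-domain proteins turned to -0.24, -0.04, -0.01 and -0.11. Of single genes, H2-Aa turned to -0.08 without possible doublets and Ftl1-ps1 to 1.5 with free RNA subtracted. Without the cells rich in C1q, Retnla turned to -0.08 and Cx3cr1 to -0.95. Apart from the 3 alternatives added later, list medians moved by less than 0.1 in 557 cases and by more in 35, and folds of single genes stayed within their counting interval in 466 cases, left it in 192 and turned in 2.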
